A study of Mus musculus with 8 samples.

Results

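The genes described here are 10 components and targets of the hypoxia-inducible factor (HIF) pathway, taken by name: the alpha subunit genes Hif1a and Epas1, their partner Arnt, the degradation factor Vhl, the oxygen-sensing hydroxylase genes Egln1 and Egln3, and the hypoxia targets P4ha1, P4ha2, Adm and Bnip3. All 10 were found among the 22180 genes tested. RNA came from mouse colon 2 days after bone marrow transplantation and was measured on 8 Affymetrix Mouse Gene 2.0 arrays. Every recipient was a female C57BL/6 mouse that had received busulfan and cyclophosphamide for 5 days and then bone marrow together with T cells, so conditioning and transplantation were common to both groups, and no array of an untreated mouse was analysed here. The allogeneic group (n = 4) had LP/J donors and the syngeneic group (n = 4) C57BL/6 donors, so the groups differ in donor strain. These strains follow the sample characteristics, which give C57BL/6 as the recipient of every sample; the growth protocol also has C57BL/6 mice receiving the cells but applies the word recipients to the animals the cells came from. The age of the mice is not given in the sources used here. The comparison addresses early graft-versus-host disease, an attack of donor T cells on recipient tissue. Cells were released from colon with collagenase IV over 60 min and sorted as CD31-positive, CD45-negative and CD11b-negative, the surface phenotype of endothelial cells.

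HIF is a transcription factor made of an oxygen-regulated alpha subunit (HIF1A from Hif1a, or HIF2A from Epas1) and a constant beta subunit from Arnt. While oxygen is present, prolyl hydroxylases of the EGLN family mark the alpha subunit, the VHL ubiquitin ligase binds it and it is degraded; in hypoxia it persists, enters the nucleus and activates genes of glycolysis, vessel growth and matrix synthesis. Oxygen therefore acts mainly on the protein, which these arrays do not measure. Target transcripts can respond to HIF activity, which was not measured either. Epas1 is a characteristic gene of endothelium, and the colon surface epithelium is a tissue with low oxygen in health.

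HIF binds DNA at a short core, ACGTG or GCGTG. RefSeq promoter sequences (GRCm38.p6, from 250 bases before the start site to 50 after) were at hand for 9 of the 10 genes, Epas1 being the other. ACGTG on either strand was present in 6 of these 9, those of Hif1a, Egln1, Egln3, P4ha1, P4ha2 and Bnip3, and in 19.6% of all 32851 promoters of this length. GCGTG was present in 6 of the 9, those of Arnt, Egln1, P4ha1, P4ha2, Adm and Bnip3, and in 32.4% of all promoters. At least 1 of these cores was found in 8 of 9 and in 43.8% of all. A match describes the letters and is not a binding site. The stretches around the matches upstream of the start are printed for the 4 genes with the smallest p-values in the comparison that follows. Each is read 5′ to 3′ on the strand of its gene, with cores on either strand in capitals; CACGT and CACGC are the cores read on the opposite strand, and CACGTG holds an overlapping match on each strand.
P4ha2, chr11:54100797-54100879, plus strand: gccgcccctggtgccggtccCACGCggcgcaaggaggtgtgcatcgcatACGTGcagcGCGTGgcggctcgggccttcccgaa
Hif1a, chr12:73907712-73907821, plus strand: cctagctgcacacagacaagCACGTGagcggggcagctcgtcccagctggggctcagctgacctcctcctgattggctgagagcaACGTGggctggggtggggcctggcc
Egln3, chr12:54204079-54204123, minus strand: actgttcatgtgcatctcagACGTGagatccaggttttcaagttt
Bnip3, chr7:138909517-138909643, minus strand: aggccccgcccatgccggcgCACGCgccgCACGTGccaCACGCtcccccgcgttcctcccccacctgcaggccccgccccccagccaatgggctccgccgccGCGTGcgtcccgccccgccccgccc
In P4ha2 the 3 upstream cores begin 107, 78 and 69 bases before the start site. In Egln3 the only upstream core begins 229 bases before it.

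The sort was checked against marker genes. All 24 measured endothelial markers had a negative log2 change (allogeneic minus syngeneic), where 51% of all genes did. In limma 8 of these markers were lower at an unadjusted p below 0.05 (5.43% of all genes) and 0 passed the threshold over all genes. Their array mean ran from 7.59 to 8.27 in the allogeneic and from 7.87 to 9.77 in the syngeneic group, with syngeneic arrays 3 (8.93) and 4 (9.77) above all others. Colon epithelial markers were also strong on every array, with means of 10.51 to 10.73 in the allogeneic and 9.80 to 10.505 in the syngeneic group, so that the groups did not overlap (exact two-sided permutation p = 0.0286). Of these 24 markers 21 had a positive log2 change, 8 were higher at an unadjusted p below 0.05 (7.81% of all genes) and 0 passed in limma. Pecam1, which encodes the sort marker CD31, averaged 10.4, the epithelial genes Epcam 9.36 and Krt8 11.9, and Ptprc, which encodes the excluded CD45, 5.20. The RNA was thus not of endothelial cells alone. Array means of fibroblast and mural markers were 7.62 to 8.38 in the allogeneic and 7.58 to 8.18 in the syngeneic group, those of leukocyte markers 4.69 to 5.35 and 5.09 to 5.38, and those of glia and neuron markers 4.54 to 4.79 and 4.67 to 4.85. Of 17 leukocyte markers 1 was called lower, where 0.113% of all genes were. This was S100a8, a neutrophil and monocyte calprotectin gene, with a log2 change of -1.94 (in limma, adjusted p = 0.00424). Its values were 4.75 to 5.25 on syngeneic and 2.59 to 3.41 on allogeneic arrays, all below the array median over genes, 5.30 to 5.35. S100a9 (-0.83) and Ly6g (-1.17) are further neutrophil genes named after their values were seen. Both also had all allogeneic arrays below the syngeneic ones but did not pass (in limma, adjusted p = 0.0590 and 0.222). Ly6g averaged 7.72, far above Ptprc, and which cells gave this signal was not tested. The leukocyte list as a whole did not follow S100a8, S100a9 and Ly6g: 11 of its 17 markers had a negative and 6 a positive log2 change. Ptprc had 0.0086, and Itgam, which encodes the excluded CD11b, had -0.14. Fits of the 10 genes with the endothelial or epithelial mean as a covariate are given below. The other marker lists were not used as covariates, and the cause of any shift was not tested. In bulk samples fewer cells of a type and less RNA per cell cannot be told apart.

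None of the 10 genes passed the threshold, an adjusted p below 0.05 in limma over all genes. In that fit 0.356% of all genes were called higher and 0.113% lower in allogeneic arrays, so a count of 0 of 10 is near this background. At an unadjusted p below 0.05 the fit gave 3 of the 10 as lower (P4ha2, Hif1a and Egln3), where 5.43% of all genes were, and 0 as higher, where 7.81% were. The allogeneic arrays all lay below the syngeneic ones for 2 genes, Hif1a and P4ha2 (3.36% of all genes), and all above for 0 (5.18% of all genes). The log2 change was negative for 9 of 10, against 51% of all genes, and its median was -0.43, against -0.0050 over all genes. The members were chosen with earlier results of these data known, and they are not independent of each other, so these counts describe the list and test nothing about it.

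**Figure D1:**
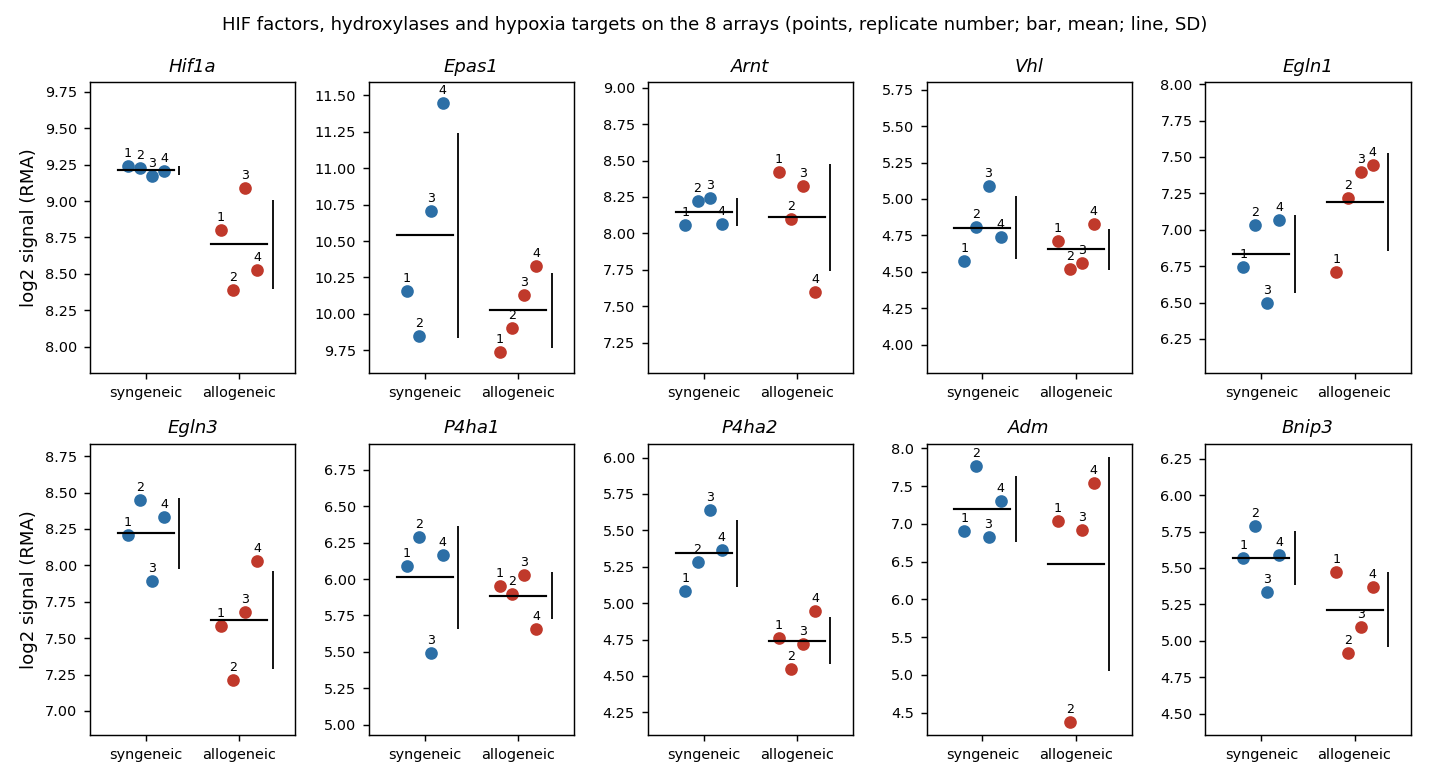
Normalized log2 signal (vertical axis, its own range in each panel) of the 10 genes on the 4 syngeneic (blue) and 4 allogeneic (red) arrays; points carry replicate numbers, horizontal bars are group means and vertical lines SD. The 4 syngeneic Hif1a values lie between 9.17 and 9.24, above all allogeneic ones, and allogeneic array 2 is far below the rest for Adm, at 4.38.

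Hif1a, which encodes the widely expressed alpha subunit, had log2 signals of 8.80, 8.39, 9.09 and 8.53 on allogeneic arrays 1 to 4 and of 9.24, 9.23, 9.17 and 9.21 on syngeneic arrays 1 to 4. The syngeneic values lay close together, the allogeneic ones were spread wider, and the groups did not overlap. Means were 8.70 ± 0.31 and 9.21 ± 0.029 (SD, n = 4 each), which is a log2 change of -0.51 ± 0.15 (SE, 95% interval -0.84 to -0.18), or a 1.42-fold lower allogeneic level, which did not pass (in limma, adjusted p = 0.168). The exact permutation p was 0.0286 (two-sided, unadjusted), the smallest that 4 against 4 arrays allow. A second probe set assigned to Hif1a alone gave a weak signal of 4.13 to 4.76 on all arrays and a log2 change of -0.17. The mean of its probe sets gave -0.34.

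Epas1, the endothelium-enriched alpha subunit gene, had values of 9.73, 9.90, 10.1 and 10.3 on allogeneic arrays 1 to 4 and of 10.2, 9.85, 10.7 and 11.4 on syngeneic arrays 1 to 4. Syngeneic arrays 3 and 4 were the highest, and syngeneic arrays 1 and 2 lay among the allogeneic ones. The log2 change of -0.51 ± 0.29 (SE, 95% interval -1.16 to 0.13) was as large as that of Hif1a but did not pass (in limma, adjusted p = 0.488), with a syngeneic SD of 0.70. Within arrays the difference Epas1 minus Hif1a was 1.32 ± 0.40 in allogeneic arrays against 1.33 ± 0.72 in syngeneic ones (SD, n = 4 each; exact two-sided permutation p = 0.971), so the mean changes of the alpha subunit genes were not distinguished.

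The array-by-array pattern of the alpha subunit genes was not alike. Epas1 followed the endothelial marker mean, with a slope of 0.82 ± 0.068 (SE, 95% interval 0.67 to 0.97) per log2 unit in a fit that also held the group, while the slope of Hif1a was 0.019 ± 0.13 (95% interval -0.27 to 0.31). With that covariate the log2 change of Epas1 was 0.085 ± 0.091 and that of Hif1a -0.49 ± 0.18 (SE; in limma, adjusted p = 0.833 and 0.336). The mean of the epithelial markers differs between the groups without overlap, so a fit with it as a covariate separates the group from that signal only in part. On that mean the slope of Epas1 was -1.92 ± 0.39, and its log2 change in that fit was 0.21 ± 0.22. Without syngeneic arrays 3 and 4 Epas1 had a log2 change of 0.023 ± 0.17 and Hif1a one of -0.53 ± 0.19 (SE). Epas1 is not among the 24 markers, but it shares the arrays with them.

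**Figure D2:**
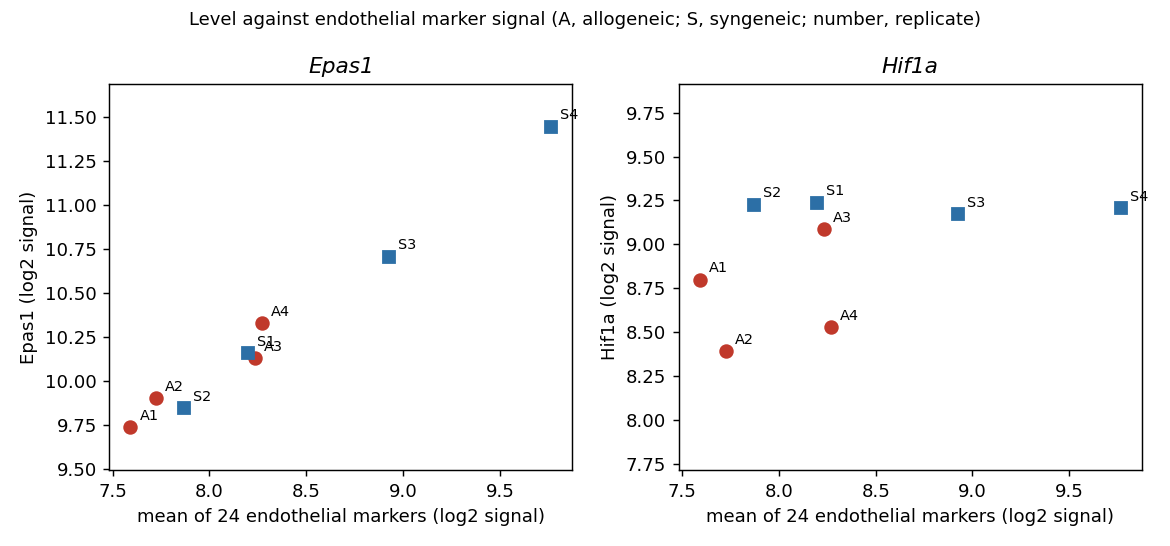
Log2 signal of Epas1 (left) and Hif1a (right, vertical axes of equal span) against each array's mean log2 signal over 24 endothelial markers; red circles are allogeneic and blue squares syngeneic arrays, with replicate numbers. Epas1 values increase along with the marker mean from 9.73 on allogeneic array 1 to 11.4 on syngeneic array 4, whereas the syngeneic Hif1a values stay between 9.17 and 9.24 over the whole range.

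The genes most like each alpha subunit gene were found by the mean absolute difference over the 8 arrays after each gene was centred on its own mean, among genes that varied at least as much. For Epas1 they were Thsd1 (0.066), which encodes a transmembrane protein with a thrombospondin domain, Phlda3 (0.076), a p53-induced inhibitor of AKT signalling, and Nuak1 (0.085), an AMPK-related kinase. For Hif1a they were the unnamed transcript AU020206 (0.067), Urah (0.076), an enzyme of urate breakdown, and Gda (0.082), the guanine deaminase. AU020206 went from a mean of 9.39 in syngeneic to 8.75 in allogeneic arrays and did not pass (in limma, adjusted p = 0.103).

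Arnt, which encodes the shared beta subunit, had allogeneic values of 8.42, 8.10, 8.32 and 7.60 and syngeneic values of 8.06, 8.22, 8.24 and 8.07. The syngeneic values fell inside the allogeneic range, and the log2 change of -0.037 ± 0.18 (SE, 95% interval -0.43 to 0.36, in limma, adjusted p = 0.957) turned positive, 0.13, without allogeneic array 4. Vhl, which encodes the recognition subunit of the ubiquitin ligase, had values of 4.71, 4.52, 4.56 and 4.83 on allogeneic and of 4.58, 4.81, 5.09 and 4.74 on syngeneic arrays. These overlap as well, with a log2 change of -0.15 ± 0.14 (SE, in limma, adjusted p = 0.716). The Vhl signal lay below the array median over genes, 5.30 to 5.35, and no detection call was at hand, so its values are given only as a low signal.

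The hydroxylase genes Egln1 and Egln3 had log2 changes of opposite sign, neither of which passed. Egln1, which encodes PHD2, the main oxygen sensor, was the only one of the 10 with a positive log2 change. Its values were 6.71, 7.22, 7.40 and 7.44 on allogeneic and 6.74, 7.03, 6.50 and 7.07 on syngeneic arrays, so that 3 allogeneic arrays lay above every syngeneic one and allogeneic array 1 did not. The log2 change was 0.36 ± 0.20 (SE, 95% interval -0.078 to 0.79, in limma, adjusted p = 0.476). Egln3, which encodes PHD3 and is itself a strongly HIF-induced gene, had values of 7.59, 7.21, 7.68 and 8.03 on allogeneic and of 8.21, 8.45, 7.89 and 8.33 on syngeneic arrays. Only allogeneic array 4 and syngeneic array 3 overlapped. Its mean was 7.63 ± 0.34 against 8.22 ± 0.24 (SD, n = 4 each), which is a log2 change of -0.59 ± 0.19 (SE, 95% interval -1.01 to -0.18, in limma, adjusted p = 0.207).

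Set against each other within arrays, Egln1 minus Egln3 was -0.87, 0.0065, -0.28 and -0.59 on allogeneic arrays 1 to 4 and -1.46, -1.42, -1.39 and -1.27 on syngeneic arrays 1 to 4. The groups did not overlap, and the mean of this difference was 0.95 higher in allogeneic arrays (exact two-sided permutation p = 0.0286, the smallest possible, and 0.0857 when adjusted over the 3 pairs of related genes compared). This comparison of pairs was added after the values were seen. Egln2, which encodes the remaining family member PHD1, had a log2 change of -0.27 ± 0.13 (SE, in limma, adjusted p = 0.403), with all allogeneic arrays (7.72 to 8.05) below the syngeneic ones (8.07 to 8.21). Hif1an encodes FIH, the asparaginyl hydroxylase that blocks HIF transactivation. It averaged 5.69 ± 0.62 in allogeneic arrays against 4.98 ± 0.21 in syngeneic ones (SD, n = 4 each). The log2 change was 0.71 ± 0.27 (SE, in limma, adjusted p = 0.295), with allogeneic array 4 the highest at 6.56. The syngeneic Hif1an values (4.78 to 5.24) and those of allogeneic arrays 2 and 3 were below the array median over genes.

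Among the targets, P4ha1 and P4ha2 encode alternative catalytic subunits of the collagen prolyl 4-hydroxylase, which stabilizes the collagen triple helix. P4ha2 had values of 4.76, 4.55, 4.72 and 4.95 on allogeneic and of 5.08, 5.28, 5.64 and 5.36 on syngeneic arrays, with no overlap. Its log2 change of -0.60 ± 0.15 (SE, 95% interval -0.94 to -0.26) corresponds to a 1.51-fold lower allogeneic level. It had the smallest p of the 10 genes and still did not pass (in limma, adjusted p = 0.121). The allogeneic values and those of syngeneic arrays 1 and 2 were below the array median over genes, and how far background compresses this difference was not tested. P4ha1 had 5.95, 5.90, 6.03 and 5.66 on allogeneic and 6.09, 6.29, 5.49 and 6.17 on syngeneic arrays. Syngeneic array 3, which had the highest P4ha2, had the lowest P4ha1, and the log2 change was -0.13 ± 0.19 (SE, 95% interval -0.54 to 0.28, in limma, adjusted p = 0.831). The within-array difference P4ha1 minus P4ha2 was 1.14 ± 0.30 in allogeneic arrays against 0.67 ± 0.55 in syngeneic ones (SD, n = 4 each, exact two-sided permutation p = 0.143), so a difference between the paralogs in their change was not resolved.

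Adm encodes adrenomedullin, a vasodilator peptide that endothelium both secretes and senses. Its values were 7.04, 4.38, 6.92 and 7.53 on allogeneic and 6.90, 7.77, 6.82 and 7.30 on syngeneic arrays. Allogeneic array 2 stood far below each other array, and the other 3 allogeneic arrays lay within the syngeneic range. The log2 change of -0.73 ± 0.57 (SE, 95% interval -1.99 to 0.52, in limma, adjusted p = 0.638) rested on that array: without it the value was -0.035 ± 0.25. Bnip3, which encodes a mitochondrial protein that promotes mitophagy in hypoxia, had 5.47, 4.92, 5.10 and 5.37 on allogeneic and 5.57, 5.79, 5.34 and 5.59 on syngeneic arrays. Syngeneic array 3 fell among the allogeneic values, and the log2 change was -0.36 ± 0.16 (SE, 95% interval -0.72 to 0.0019, in limma, adjusted p = 0.380). The Bnip3 values of allogeneic arrays 2 and 3 were below the array median over genes, 5.30 to 5.35.

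Allogeneic array 2 held the lowest of the 8 values for 6 of the 10 genes (Hif1a, Vhl, Egln3, P4ha2, Adm and Bnip3), while over all genes it held the lowest value in 12.7%. Among 50 other hypoxia targets it did not stand apart: it was the lowest for 10, allogeneic array 4 for 10 and syngeneic array 4 for 11. Without this array the median log2 change of the 10 genes was -0.19 in place of -0.43; Hif1a had -0.41 ± 0.15, Egln3 -0.45 ± 0.18, P4ha2 -0.53 ± 0.16 and Bnip3 -0.26 ± 0.16 (SE). P4ha2, Hif1a and Egln3 kept an unadjusted p below 0.05 in that fit. The endothelial marker mean of this array, 7.73, was among the lowest, and its epithelial mean, 10.5, was like that of the other allogeneic arrays; the part of either in these low values was not tested.

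**Figure D3:**
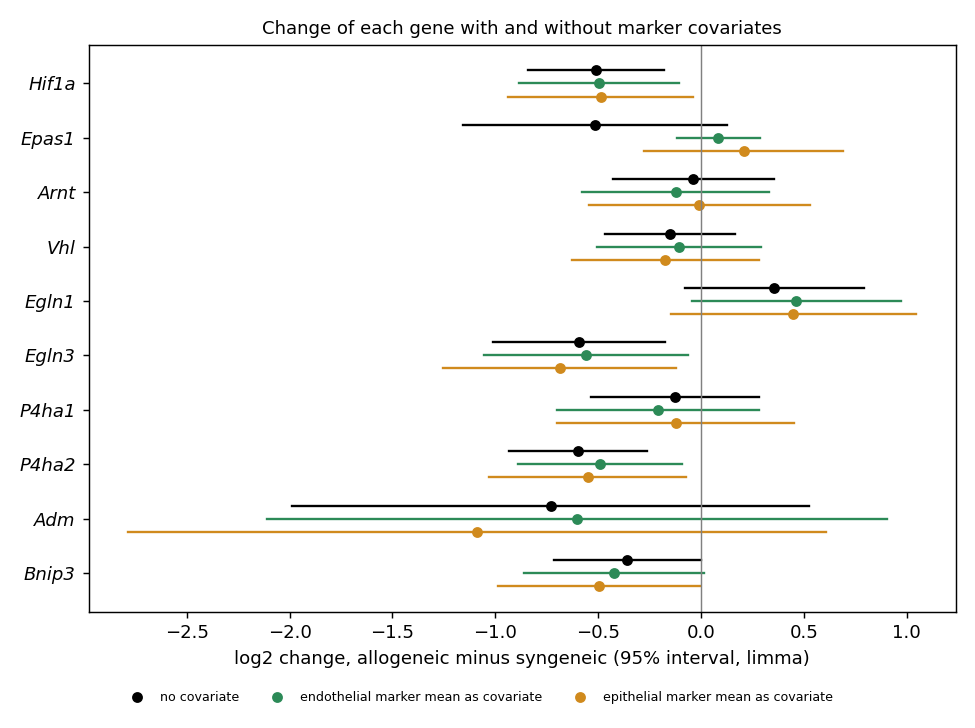
Log2 change (allogeneic minus syngeneic, horizontal axis) of the 10 genes with 95% intervals from limma, without a covariate (black) and with the array mean of endothelial (green) or epithelial (orange) markers as a covariate. Epas1 moves from -0.51 to 0.085 and 0.21, while Hif1a, Egln3 and P4ha2 keep intervals below 0 in all 3 fits.

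With a marker covariate, Hif1a, Egln3, P4ha2 and Bnip3 kept a negative log2 change. With the endothelial mean these were -0.49, -0.56, -0.49 and -0.42, and with the epithelial mean -0.49, -0.69, -0.55 and -0.49. None passed over all genes in either fit (in limma, adjusted p = 0.336 to 0.605). Slopes on the endothelial mean were between -0.12 and 0.17 for the 9 genes other than Epas1, and each of their 95% intervals held 0.

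The wider pathway was described with lists. Of 12 other measured genes of HIF regulation 6 had a negative and 6 a positive log2 change, none passed in limma, and the median was -0.023. At an unadjusted p below 0.05, 2 were higher in limma, where 7.81% of all genes were. These were Hif1an and Elob, a subunit of the VHL ligase (0.22 ± 0.095 SE). Cited2, a hypoxia-induced competitor of HIF for its coactivators, had 0.21 ± 0.18, and the inhibitory subunit gene Hif3a -0.20 ± 0.21 (SE).

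Among 50 other hypoxia targets 29 had a negative and 21 a positive log2 change, where 51% of all genes were negative. In limma 1 passed as higher and 0 as lower (0.356% and 0.113% of all genes). At an unadjusted p below 0.05, 8 were lower and 6 higher in limma, where 5.43% and 7.81% of all genes were. The median of the 50 targets was -0.089. In the list for signalling and stress (28 measured, 0 called) the smallest p-values pointed both ways. The growth factor gene Vegfa had values of 8.25 to 8.49 on allogeneic and of 8.68 to 9.05 on syngeneic arrays (log2 change -0.44 ± 0.12 SE, in limma, adjusted p = 0.142). The transcriptional repressor gene Bhlhe40 (-0.40 ± 0.11 SE) also showed no overlap. Ero1a, an oxidase of protein folding in the endoplasmic reticulum, had -0.54 ± 0.18 (SE). The mean over the Ero1a probe sets gave -0.30 (in limma, adjusted p = 0.453). In the other direction, the transferrin receptor gene Tfrc had 6.94 to 7.47 on allogeneic and 6.11 to 6.86 on syngeneic arrays, a log2 change of 0.78 ± 0.20 (SE, in limma, adjusted p = 0.120). Tfrc passed in 1 of 19 alternative fits, the one without syngeneic array 2 (0.95, in limma, adjusted p = 0.0432), which held its highest syngeneic value.

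In the glucose list (22 measured) Gbe1, the glycogen branching enzyme gene, rose from 4.57 ± 0.30 to 5.64 ± 0.086 (SD, n = 4 each), which is a log2 change of 1.07 ± 0.16 (SE, in limma, adjusted p = 0.0241). Gbe1 had a weak signal, with syngeneic values of 4.34 to 4.99 below and allogeneic values of 5.54 to 5.75 little above the array median over genes, 5.30 to 5.35. It was called in 10 of 19 alternative fits, with log2 changes from 0.95 to 1.21; the call was lost without allogeneic array 1, 2, 3 or 4 and without syngeneic array 1 or 3 (adjusted p = 0.0534 to 0.102), and with the endothelial (0.0886) or epithelial (0.271) covariate and without syngeneic arrays 3 and 4 (0.118). At an unadjusted p below 0.05, 3 genes of this list were higher and 3 lower, where 7.81% and 5.43% of all genes were. The higher ones other than Gbe1 were named after their values were seen. These were the phosphofructokinase gene Pfkl (0.44 ± 0.17 SE) and the glucose transporter gene Slc2a3 (0.62 ± 0.27 SE). Neither passed (in limma, adjusted p = 0.299 and 0.362). Slc2a3 had a weak signal, below the array median over genes on all arrays but allogeneic array 4, at 5.67. The lower ones did not pass either: Pfkp, a paralog of Pfkl (-0.62 ± 0.17 SE), the lactate exporter gene Slc16a3 (-0.65 ± 0.19 SE) and the hexokinase gene Hk2 (-0.68 ± 0.24 SE; in limma, adjusted p = 0.147, 0.167 and 0.251). For Slc16a3 all allogeneic values (4.76 to 5.10) were below the array median over genes. Hk2 had 8.22 to 8.43 on syngeneic arrays 1 to 3 but 7.27 on syngeneic array 4, within the allogeneic range of 7.14 to 7.54. Without syngeneic array 4, the array richest in endothelial signal, Hk2 fell by 0.95 and Slc16a3 by 0.84 on the log2 scale (in limma, adjusted p = 0.0241 and 0.0458). That array held the only syngeneic value within the allogeneic range for Hk2 and for Slc16a3. Each of these genes was called in 1 of 19 alternative fits, the one without it. Pfkp passed in 2 of 19 alternative fits, with the endothelial covariate (-0.93, in limma, adjusted p = 0.0203) and without syngeneic arrays 3 and 4 (-0.92, in limma, adjusted p = 0.0365). The glucose transporter gene Slc2a1 (-0.20), Ldha (-0.14), Pgk1 (-0.094) and Pdk1 (-0.18), further classical targets named after their values were seen, had smaller changes that did not pass. In the whole list 14 genes had a negative and 8 a positive log2 change. The most negative was that of Pfkfb3 (-0.86 ± 0.43 SE), also named after its value was seen, which did not pass (in limma, adjusted p = 0.425).

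**Figure D4:**
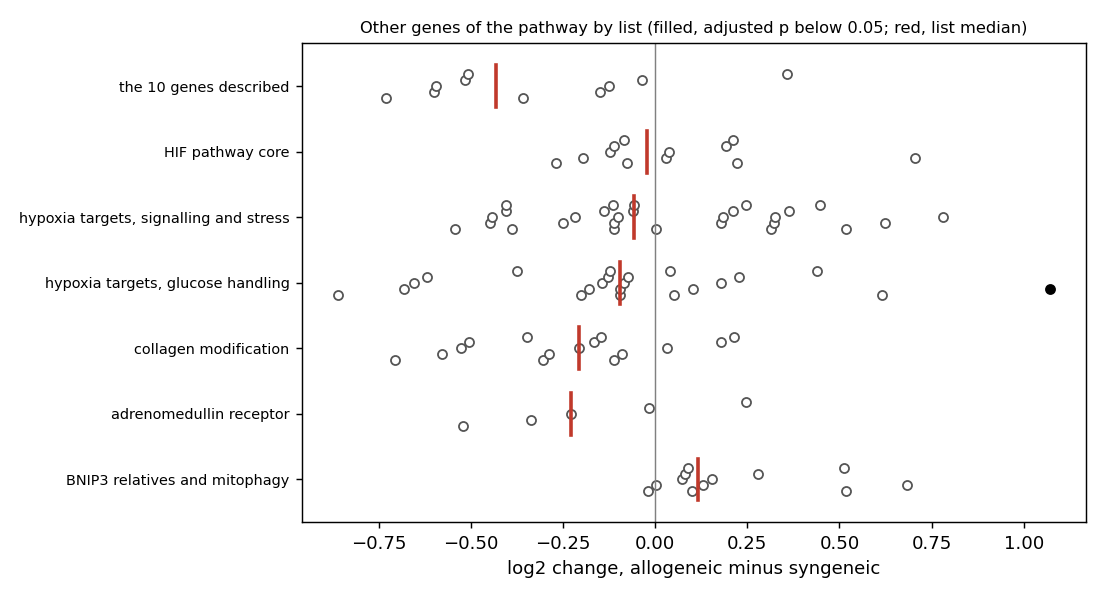
Log2 change (horizontal axis, allogeneic minus syngeneic) of the 10 genes and of the other measured genes in 6 lists; each point is 1 gene, filled where the adjusted p in limma was below 0.05, and red lines are list medians. Gbe1 at 1.07 is the only filled point, and the medians run from -0.43 for the 10 genes to 0.12 for BNIP3 relatives and mitophagy.

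The partners of the targets were listed as well. Of 15 other genes of collagen modification 12 had a negative log2 change, where 51% of all genes did, and the median was -0.21. In limma 0 passed, and 2 were lower and 1 higher at an unadjusted p below 0.05 (5.43% and 7.81% of all genes). P4hb, the protein disulfide isomerase that forms the second subunit of the hydroxylase with P4ha1 or P4ha2, had 10.8 to 10.9 on allogeneic and 10.5 to 10.7 on syngeneic arrays (log2 change 0.18 ± 0.084 SE, in limma, adjusted p = 0.394), opposite in sign to P4ha2. Ppib, a collagen-folding isomerase, had 0.21 ± 0.078, the lysyl oxidase-like gene Loxl3 -0.58 ± 0.22 and P3h1, a collagen prolyl 3-hydroxylase, -0.53 ± 0.23 (SE). The median of this list moved to -0.034 with the endothelial covariate, -0.051 with the epithelial covariate and -0.046 without syngeneic arrays 3 and 4. In the same 3 fits Loxl3 had -0.32, -0.37 and -0.24, and P3h1 had -0.18, -0.076 and -0.17.

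For adrenomedullin the receptor genes were measured. Calcrl, the receptor gene, had its highest value, 9.29, on syngeneic array 4, where its other 7 values were 7.45 to 8.39, and Ramp2, which gives the receptor its adrenomedullin specificity, had 8.12 there. Their log2 changes of -0.23 ± 0.36 and -0.52 ± 0.31 (SE, in limma, adjusted p = 0.846 and 0.508) became 0.46 and 0.073 with the endothelial covariate. Of the 5 genes of this list 0 passed in limma, also at an unadjusted p below 0.05.

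Of 12 measured genes of mitophagy 11 had a positive log2 change and 1 a negative one (51% of all genes were negative), but several lay near 0, such as Map1lc3b (0.0028), a core autophagosome gene named after its value was seen. The median was 0.12, 0 passed in limma, and 3 were higher at an unadjusted p below 0.05, as were 7.81% of all genes. These 3 were Pink1, the kinase that marks damaged mitochondria (0.51 ± 0.17), Gabarapl1, an autophagosome protein gene (0.68 ± 0.23), and Bcl2l13, a mitophagy receptor gene (0.52 ± 0.22; SE, in limma, adjusted p = 0.215, 0.235 and 0.350). The groups overlapped for all 3. The close relative Bnip3l was not analysed here.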

How the data were processed

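The values deposited by the authors for the 8 arrays are log2 signals of probe sets. The submitters' processing notes name RMA and Expression Console 1.4.1. RMA subtracts background, equalizes the distributions of the arrays and combines probes, which shrinks differences of weak signals. Per the labels' protocols, targets were amplified from 700 pg of total RNA. Of 41345 probe sets, 23521 had exactly 1 symbol in the platform annotation, 1814 several and 16010 none. Each gene was represented by its single-symbol probe set with the highest mean, giving 22180 genes. Changes were fitted with limma 3.58.1 in R 4.3.3 (eBayes with an intensity trend, no filter), adjusted by Benjamini-Hochberg over all genes, and the code was tested on simulated data. A limma p-value sets the difference of the group means against the spread between arrays within the groups, moderated with that of all genes. The labels call the 4 arrays of a group biological replicates.

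The 10 genes, the lists (188 of 210 genes measured) and the alternatives were chosen with earlier results of these data known. Genes named beside the 10 are up to 4 with the smallest p per pathway list, fixed relatives and partners, and marker genes. The 3 genes most like each of Hif1a and Epas1 were named as well. Pfkfb3, 6 other glucose genes, S100a9, Ly6g and Map1lc3b were added after their values were seen. Over all genes same-numbered arrays of the groups did not deviate together (correlations -0.10 to 0.10), so replicate numbers were not taken as pairs. The endothelial marker mean, however, was higher on arrays 3 and 4 than on arrays 1 and 2 in both groups. Exact permutation used all 70 ways to label 4 of 8 arrays. No batch or date was given. Promoter sequences are from RefSeq, GRCm38.p6.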

Additional observations from a re-analysis of the deposited data

Results flagged for a closer look

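Of 70 groups of 4 values examined (the 10 genes and the 25 named pathway genes in each donor group), 1 held a value far from its companions by Dixon's ratio (0.834, above the 95% critical value for groups of 4): Elob on allogeneic array 1, at 10.7, where the other allogeneic arrays had 10.5. Chance flags about 1 in 20 such groups. The low Adm value of allogeneic array 2 did not reach the critical value.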

How the results depend on the processing

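None of the 10 genes passed in limma in any of 19 alternatives, in which the count of genes with an unadjusted p below 0.05 stayed at 3 or 4 lower, and at 0 higher but for 1 without allogeneic array 1. The lowest adjusted p in limma was 0.0832 for P4ha2 and 0.0976 for Hif1a. All of the 10 except Epas1 and Arnt kept their sign throughout. Over all genes the counts moved widely: against 79 called higher and 25 lower, array weights gave 39 lower, a filter on dim genes 136 and 54, a threshold of 0.10 203 and 102, the endothelial covariate 19 and 10, the epithelial covariate 4 and 2, and the fit without syngeneic arrays 3 and 4 26 and 12; leaving out single arrays gave 4 to 145 higher and 4 to 35 lower. Replicate numbers did not pair the arrays over all genes. With them as a block 40 genes were called higher and 28 lower in limma. In that fit the adjusted p of Epas1 was 0.233 in place of 0.488. The sign turned for Epas1 with the endothelial covariate (0.085), the epithelial covariate (0.21) and without syngeneic arrays 3 and 4 (0.023), and for Arnt with array weights (0.038). In the same 3 fits Ramp1 had -0.15, -0.34 and -0.043, Ramp3 0.47, 0.58 and 0.37, and Calcrl 0.46, 0.71 and 0.29; Ramp2 had 0.073 and 0.15 with the covariates, and Cited2 -0.012 with the epithelial one. With single arrays left out, Arnt ran from -0.14 to 0.13, Ramp1 from -0.046 to 0.43, Ramp3 from -0.62 to 0.048 and Calcrl from -0.43 to 0.18. The causes of these shifts were not tested. Signals close to or below the array median, such as those of Vhl, P4ha2, Bnip3, Gbe1 and S100a8, and the number of arrays limit what could be resolved.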
